A study of Homo sapiens with 5 samples.

Results

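The enzymes and carriers of glycolysis, the enzymes of the pentose phosphate pathway and a few genes of hypoxia control were followed step by step through the ribosome footprints of a human cell line. The set was given as 34 gene symbols. A row of the count table belonged to the set when its symbol equalled one of them, with the row of most counts taken for each symbol. Of the 34, 31 were in the table, which holds 14042 symbols in all. PDK1, PFKFB3 and ENO2 were not analysed here. All 31 members passed the filter on low counts, and all are described.

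HAP1 is a well-known human line that carries 1 copy of most chromosomes, which makes genes easy to knock out. The 5 libraries were 2 of wild-type HAP1 cells and 3 of HAP1 cells with the methyltransferase METTL18 knocked out, with no treatment named for either group, and the study asked what METTL18 does in haploid cells and what it acts on. Ribosome footprints, the short mRNA pieces that a ribosome shields from nuclease, were counted per transcript. Whether the libraries came from separate cultures, and how many clones the knockout represents, is not stated in the labels. The p-values therefore measure a spread between libraries that may be technical.

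Glycolysis splits glucose into pyruvate. An investment phase traps and phosphorylates the sugar, aldolase cleaves it, and a payoff phase from glyceraldehyde phosphate dehydrogenase to pyruvate kinase yields ATP and NADH. Lactate dehydrogenase regenerates NAD+ by reducing pyruvate, and monocarboxylate carriers export the lactate. The pentose phosphate pathway branches off at glucose 6-phosphate, makes NADPH in its oxidative arm, and exchanges ribose 5-phosphate with glycolytic sugars in its reversible arm. Many of these genes have isozymes with tissue-biased use, and several are known targets of the hypoxia-inducible factor HIF1A.

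Because isozymes share coding sequence, the stretches that a short footprint could not tell apart were found first. A footprint of 28 bases, the shortest selected, was taken as the window. HK1 (transcript on chr10:69318844-69401882, plus strand) and HK2 (chr2:74833981-74893359, plus strand) shared 3 of the 2727 windows of HK1, in a single stretch of 30 bases at coding positions 2041 to 2070 of both. The capitals mark that stretch, with 15 coding bases in lower case on each side, from the GENCODE 29 transcripts on hg38.
HK1: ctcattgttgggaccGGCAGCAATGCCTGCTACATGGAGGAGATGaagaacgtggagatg
HK2: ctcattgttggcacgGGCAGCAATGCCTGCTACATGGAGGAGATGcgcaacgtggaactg
ALDOA (chr16:30064497-30070411, plus strand) and ALDOC (chr17:28573115-28577264, minus strand) shared 17 of 1068 windows, the longest shared run being 44 bases at coding positions 511 to 554 of both.
ALDOA: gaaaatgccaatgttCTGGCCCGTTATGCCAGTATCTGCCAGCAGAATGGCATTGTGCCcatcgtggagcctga
ALDOC: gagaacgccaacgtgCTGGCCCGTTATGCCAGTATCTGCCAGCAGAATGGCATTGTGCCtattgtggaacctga
PFKL and PFKP shared 8 of 2316 windows. LDHA and LDHB, SLC2A1 and SLC2A3, SLC16A1 and SLC16A3, and PFKM against either other phosphofructokinase shared none. Pseudogenes were a wider source of ambiguity than sister isozymes. Over 50% of coding windows also occurred in annotated pseudogenes for 4 members, namely PGAM1 (100%), GAPDH (70.5%), TPI1 (69.02%) and LDHA (52.9%). BNIP3 had 43.0%, HK2 38.0% in 1 pseudogene, PGK1 33.8%, PKM 25.4%, PGD 23.1% and ENO1 19.2%, and the rest had lower shares. ENO1 also had 21.4% of its windows in other coding transcripts. Of the LDHB windows, 93.5% lie in some other annotated gene and 16.7% in pseudogenes. For 14 members no window occurred in a pseudogene. SLC2A3 shared 47.3% of its windows with other coding transcripts, its close copy SLC2A14 foremost, RPE 50.0% with RPEL1, and PGAM1 63.3% with other coding transcripts, PGAM4 among them. The values of these genes are uncertain to that extent, because the treatment of reads with several matches was not stated in the labels or processing notes.

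Total counts were 5302160 and 4887380 for wild-type libraries and 16339574 to 17629199 for knockout libraries, which were 3.33-fold deeper on average. Depth and genotype thus cannot be told apart. Levels are given as CPM (counts per megacount of the library total), scaled by TMM, a factor that offsets differences in library composition. The targeted METTL18 gave 33 and 32 counts in wild-type cells and, at the greater depth of the knockout, 33, 32 and 34 counts, or a mean of 5.70 CPM against 2.10 CPM. In edgeR's quasi-likelihood test, with p-values adjusted over all genes tested by the Benjamini-Hochberg method, its difference on the log2 scale was -1.44 (SE 0.248, adjusted p = 2.00e-06). Footprints on METTL18 were thus fewer in the knockout but still present. HAP1 descends from a leukaemia line, but 2 of 7 blood markers were in the table (CD34 and LYZ), with summed levels of 0.337 and 0.366 CPM in wild-type cells and 0 to 0.0634 CPM in knockout cells. The epithelial markers, with 4 of 5 in the table, summed to 142 to 151 CPM and 183 to 186 CPM, respectively. Most of that sum was KRT18, and CDH1 (E-cadherin) had 1 and 0 counts in wild-type libraries and 198, 187 and 197 in knockout libraries. Fibroblast markers summed to 15.8 to 24.5 CPM. Any part of these markers in the results was not tested.

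Of the 31 members, 18 rose in the knockout, 6 fell and 7 did not pass (adjusted p under 0.05, edgeR quasi-likelihood test over all 11335 genes tested). The same test called 37.8% of all genes higher and 36.6% lower, 74.4% in either direction. Among the 2054 genes with a mean of at least 100 CPM, a cut chosen after the data were seen, 53.9% were higher and 31.8% lower, 85.7% in all. Of the 20 members above that level, 14 were higher and 4 lower, so abundant genes in general also tended upward. The median log2 fold change was 0.32 over the members and 0.02 over all genes tested. Scaling by total counts alone moved the median of all genes to -0.25, called 2982 genes higher and 5597 lower, and gave 15 members higher and 10 lower, with a member median of 0.04. The glycolysis group held 22 members, of which 13 rose, 6 fell and 3 did not pass, with a median of 0.57. The pentose phosphate group held 6, of which 4 rose and 2 did not pass, with a median of 0.57, and in the hypoxia group of 3 only HIF1A passed.

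**Figure D1:**
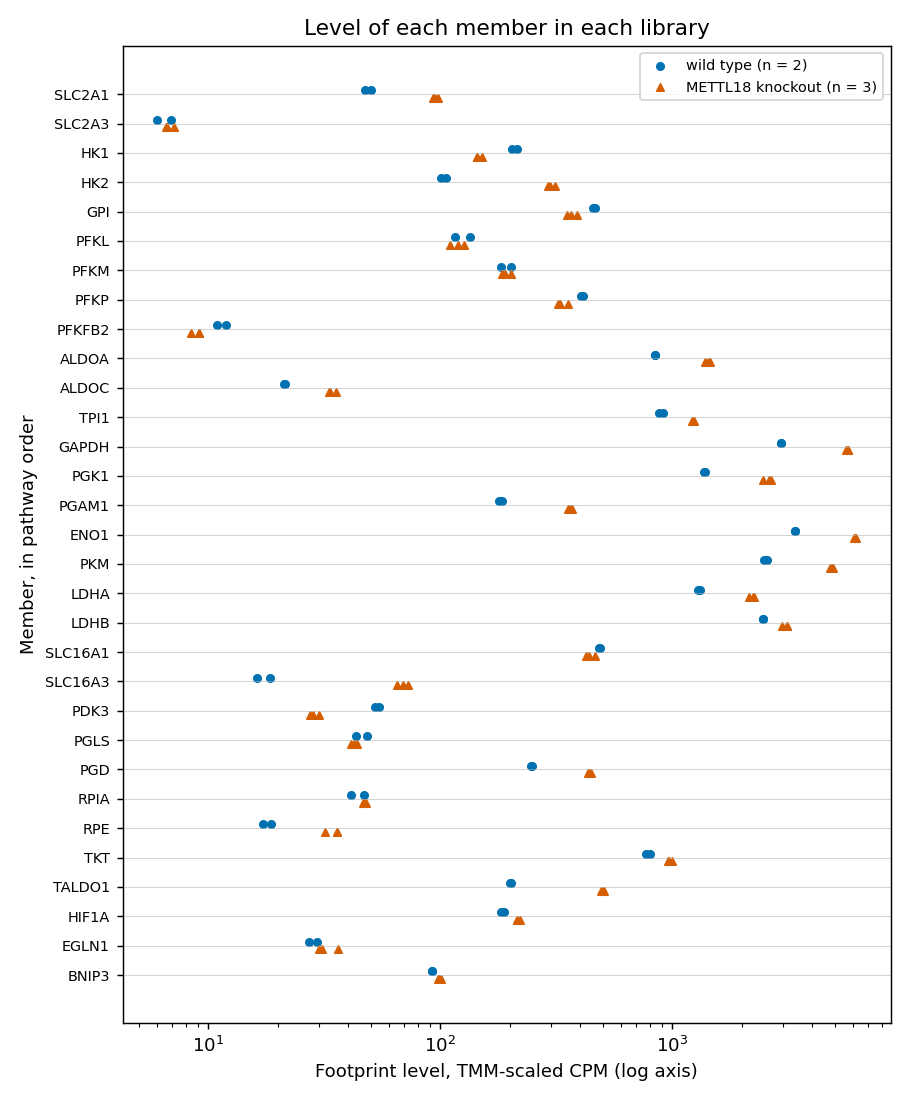
TMM-scaled CPM of each member (rows, in pathway order) in each library on a log axis, with circles for the 2 wild-type and triangles for the 3 knockout libraries. From ALDOA down to LDHB every knockout library lies to the right of both wild-type libraries, whereas HK1, GPI, PFKP and PDK3 lie to the left.

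In 20 members every knockout library lay above both wild-type libraries, in 6 every one lay below, and in 5 the groups overlapped. Over all genes tested these shares were 42.5% above and 41% below, 83.5% together. Replicates were close. The highest knockout library was at most 1.196-fold above the lowest for every member, and the wild-type pair lay within 10% of each other for 25 of the 31. The members together held 2.21% and 2.19% of all footprint counts in wild-type libraries and 2.95%, 2.96% and 3.00% in knockout libraries, a share that needs no scaling factor. The difference was 0.770 percentage points (exact two-sided permutation test over libraries, p = 0.2, the smallest that 2 against 3 libraries can give). GAPDH, ENO1 and PKM took 44.9% and 44.8% of the members' counts in wild-type libraries and 51.9% to 52.2% in knockout libraries. Without these 3 the others held 1.21% ± 0.00838 (SD, n = 2) and 1.43% ± 0.0178 (SD, n = 3) of all counts.

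Divided by coding length, GAPDH was the most densely covered member in both groups, with 2911 ± 6.001 CPM per kb (SD, n = 2) in wild-type cells and 5639 ± 49.5 (SD, n = 3) in knockout cells. ENO1 was second at 2577 ± 0.593 and 4687 ± 35.2 CPM per kb. In the wild type LDHB came next at 2454 ± 3.17 CPM per kb, well above PKM at 1580.2 ± 39.8. In the knockout the order of these changed in name only, since PKM at 3047 ± 36.9 and LDHB at 3042 ± 87.1 CPM per kb lay within their spread of each other. LDHA followed in both groups, at 1303 ± 11.01 and 2205 ± 64.3 CPM per kb. TPI1 and PGK1 then exchanged places, from 1187 ± 33.8 and 1098 ± 4.32 CPM per kb in the wild type to 1632 ± 18.4 and 2051 ± 81.98 in the knockout. At the bottom stood SLC2A3 with 4.34 ± 0.411 and 4.56 ± 0.192 CPM per kb, and PFKFB2 with 7.52 ± 0.441 and 5.86 ± 0.265. Over the 31 members the log2 fold change followed the mean level per kb with a Spearman correlation of 0.33 and coding length with -0.28, against -0.17 for coding length over 11284 genes tested. The fold change and the level per kb come from the same counts, and no value over all genes is given for level. All these correlations are descriptions across genes of the same 5 libraries.

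Glucose enters through the SLC2A carriers. SLC2A1 (GLUT1), the widely expressed carrier, gave 47.1 and 50.3 CPM in wild-type cells against 95.2, 92.99 and 98.1 CPM in knockout cells. Both wild-type libraries lay far below all 3 knockout libraries, and SLC2A1 rose with a log2 fold change (± SE) of 0.97 ± 0.0706 (adjusted p = 6.27e-16). SLC2A3 (GLUT3), a high-affinity carrier, was low throughout, at 6.901 and 6.04 CPM in wild-type cells against 6.601, 7.12 and 6.66 CPM in knockout cells. Its groups overlapped, with a log2 fold change of 0.07 with a 95% interval from -0.31 to 0.45 (adjusted p = 0.752). The share of SLC2A1 in the pair, from counts per kb, was 88.3% ± 1.45 (SD, n = 2) and 93.4% ± 0.404 (SD, n = 3).

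The hexokinases, which trap glucose by phosphorylating it, moved in opposite directions. HK1, the isozyme of most tissues and the main one of brain, gave 214 and 203 CPM in wild-type cells against 151, 143 and 144 CPM in knockout cells. All 3 knockout libraries were below both wild-type libraries, and HK1 fell with a log2 fold change (± SE) of -0.52 ± 0.0511 (adjusted p = 5.65e-12). HK2, the insulin-responsive muscle isozyme that many tumour lines also use, gave 101 and 106 CPM in wild-type cells against 311, 297 and 291 CPM in knockout cells. Here the groups lay apart the other way, and HK2 rose 2.901-fold with a log2 fold change (± SE) of 1.54 ± 0.0551 (adjusted p = 2.15e-26). By counts per kb HK1 made up 68.002% and 65.8% in wild-type cells against 32.7%, 32.6% and 33.01% in knockout cells. HK1 thus held the larger share of hexokinase footprints in wild-type cells and HK2 in knockout cells, while protein was not measured. The mean HK1 shares were 66.9% ± 1.59 (SD, n = 2) and 32.8% ± 0.233 (SD, n = 3), 34.1 percentage points apart in a quantity free of scaling (exact permutation p = 0.2, the smallest possible). The difference was far larger than the spread of either group. The stretch shared by both isozymes, printed above, covers 3 windows only, whereas 38.0% of HK2 windows recur in 1 pseudogene. The summed hexokinase level was 315 and 309 CPM in wild-type cells against 463, 440.01 and 435 CPM in knockout cells.

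The next investment steps fell or did not pass. GPI, which turns glucose 6-phosphate into fructose 6-phosphate, gave 457 and 462 CPM in wild-type cells against 388, 352 and 366 CPM in knockout cells, and all knockout libraries lay below with a log2 fold change (± SE) of -0.32 ± 0.0445 (adjusted p = 3.23e-08). Phosphofructokinase, the committed and most regulated step, has liver (PFKL), muscle (PFKM) and platelet (PFKP) subunits. PFKP had the most footprints of the subunits and fell, from 412 and 404 to 355, 321 and 328 CPM, with a log2 fold change (± SE) of -0.29 ± 0.0458 (adjusted p = 5.22e-07). PFKM gave 201 and 183 CPM in wild-type cells against 202, 189.8 and 185 CPM in knockout cells and PFKL 135 and 115 CPM in wild-type cells against 126, 109.9 and 119 CPM in knockout cells, with overlapping groups for both. Their intervals were -0.11 to 0.11 around a log2 fold change of 0.00 for PFKM (adjusted p = 0.992) and -0.21 to 0.04 around -0.09 for PFKL (adjusted p = 0.223). With total-count scaling PFKM was at -0.27 and PFKL at -0.36, both past the threshold, so their standing depends on the scaling. By counts per kb PFKP held 56.2% ± 1.76 (SD, n = 2) and 51.7% ± 0.116 (SD, n = 3) of the phosphofructokinase footprints, PFKM 26.6% ± 0.640 and 29.9% ± 0.665. PFKFB2, which makes the phosphofructokinase activator fructose 2,6-bisphosphate, was low and fell from 11.4 ± 0.669 to 8.899 ± 0.402 CPM (SD, n = 2 and 3), with a log2 fold change (± SE) of -0.36 ± 0.153 (adjusted p = 0.0337). That call was lost in several alternatives, DESeq2 among them (adjusted p = 0.155).

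**Figure D2:**
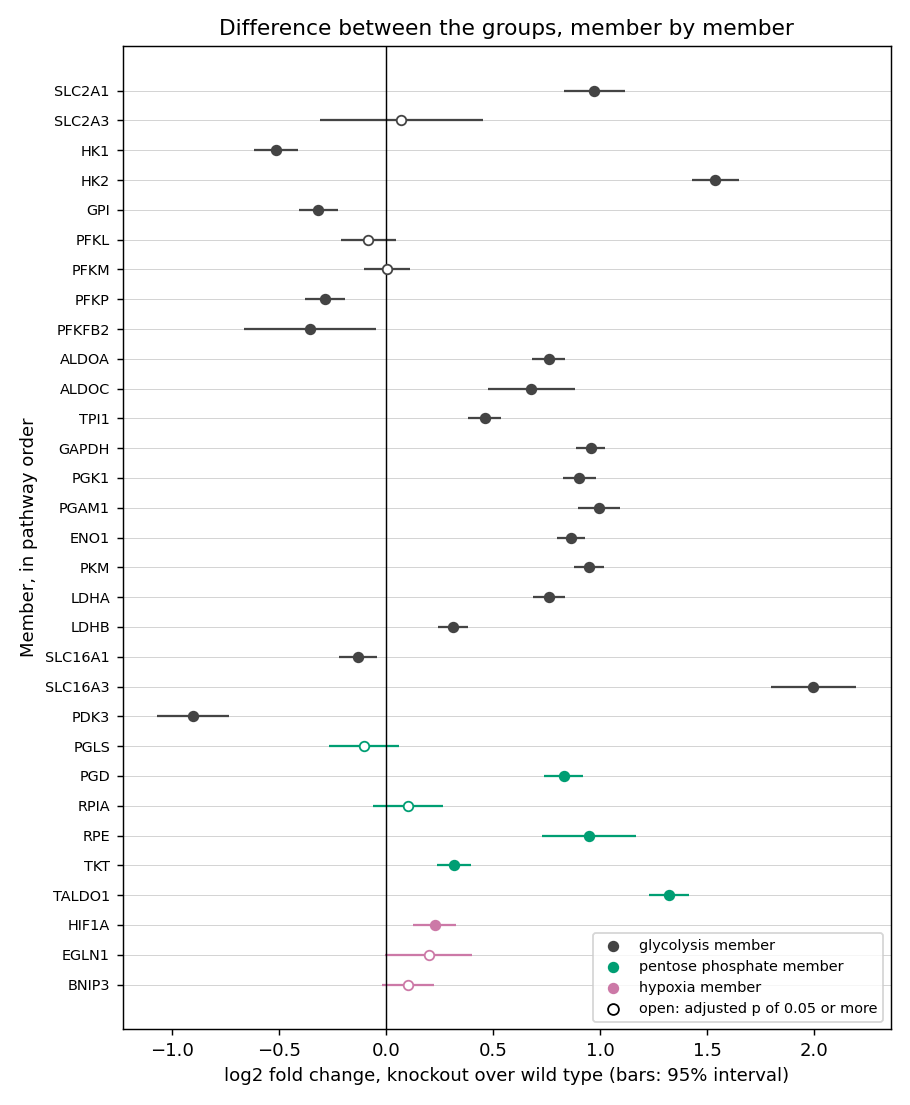
Log2 fold change of each member, knockout over wild type, with its 95% interval, filled where the adjusted p was under 0.05 and coloured by branch. All 10 members from ALDOA to LDHB lie above 0, between 0.31 and 0.99, while the 9 before them range from -0.52 for HK1 to 1.54 for HK2.

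From aldolase to lactate dehydrogenase every member rose. This division of the pathway was drawn after the values were seen and carries no test of its own. The 10 members had a median log2 fold change of 0.81, and with total-count scaling 9 of the 10 remained called higher at a median of 0.54, LDHB being lost. The 9 members before aldolase had 2 higher, 4 lower and 3 not past, with a median log2 fold change of -0.09, or 2 higher and 6 lower at a median of -0.36 with total-count scaling. Of all genes tested 37.8% were higher and 36.6% lower, and of those with a mean of at least 100 CPM 53.9% and 31.8%. All of the 10 but ALDOC reached that mean, whereas SLC2A1, SLC2A3 and PFKFB2 among the 9 did not. Any part of level in this division was not tested. ALDOA, the aldolase of muscle and of most growing cells, gave 841 and 838 CPM in wild-type cells against 1449, 1381 and 1428 CPM in knockout cells. It rose with a log2 fold change (± SE) of 0.76 ± 0.0381 (adjusted p = 3.10e-21). ALDOC, the brain isozyme, held about 2% of the pair by counts per kb and rose from 21.4 and 21.2 to 35.4, 33.6 and 33.2 CPM, with a log2 fold change (± SE) of 0.68 ± 0.101 (adjusted p = 1.18e-07). The ALDOA share was 97.5% ± 0.0077 (SD, n = 2) and 97.7% ± 0.0612 (SD, n = 3), a difference of 0.1296 percentage points. All 1068 windows of ALDOA also lie in an annotated read-through transcript of the same locus, which was the transcript the table named for ALDOA.

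TPI1, which interconverts the triose phosphates, gave 908 and 873 CPM in wild-type cells against 1227, 1236 and 1209 CPM in knockout cells. It had the smallest rise between aldolase and pyruvate kinase, with a log2 fold change (± SE) of 0.46 ± 0.0378 (adjusted p = 2.85e-14). GAPDH, the NADH-forming oxidation step and a common reference gene, gave 2939 and 2930.1 CPM in wild-type cells against 5626, 5714 and 5712 CPM in knockout cells. It rose 1.94-fold, with a log2 fold change (± SE) of 0.95 ± 0.0333 (adjusted p = 8.35e-27), and the knockout libraries differed from each other by far less than from the wild type. PGK1, the first ATP-forming step, gave 1381 and 1373 CPM in wild-type cells against 2459, 2598 and 2659.7 CPM in knockout cells and a log2 fold change (± SE) of 0.90 ± 0.0374 (adjusted p = 4.01e-24). PGAM1, the phosphoglycerate mutase, gave 184 and 179.6 CPM in wild-type cells against 353, 371 and 361 CPM in knockout cells and a log2 fold change (± SE) of 0.99 ± 0.0486 (adjusted p = 1.26e-21). All of its windows recur in pseudogenes. ENO1, the ubiquitous enolase, gave 3363 and 3364 CPM in wild-type cells against 6070.3, 6162 and 6118 CPM in knockout cells, and the wild-type pair was nearly identical. Its log2 fold change (± SE) of 0.86 ± 0.0329 (adjusted p = 1.87e-25) was close to that of its neighbours. PKM, the pyruvate kinase outside liver and red cells, gave 2567 and 2477 CPM in wild-type cells against 4919.9, 4802 and 4865 CPM in knockout cells and a log2 fold change (± SE) of 0.95 ± 0.0342 (adjusted p = 2.78e-26). Its M1 and M2 splice forms were not told apart, since the table had 1 row for the gene. The log2 fold changes of GAPDH, PGK1, PGAM1, ENO1 and PKM lay between 0.86 and 0.99, a narrow band for genes whose level per kb in the wild type ran from 238 (PGAM1) to 2911 CPM per kb (GAPDH).

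Pyruvate then meets lactate dehydrogenase, whose A subunit predominates in muscle and in glycolytic cells and whose B subunit predominates in heart. LDHA gave 1294 and 1309 CPM in wild-type cells against 2131, 2255 and 2223 CPM in knockout cells, and rose with a log2 fold change (± SE) of 0.76 ± 0.0367 (adjusted p = 7.98e-22). LDHB gave 2464 and 2468 CPM in wild-type cells against 2956, 3105 and 3110.3 CPM in knockout cells, a smaller rise with a log2 fold change (± SE) of 0.31 ± 0.0347 (adjusted p = 1.62e-10). LDHB stayed the more densely covered subunit in both groups, but the LDHA share by counts per kb went up, being 34.6% and 34.8% in wild-type cells against 42.04%, 42.2% and 41.8% in knockout cells. The means were 34.7% ± 0.162 (SD, n = 2) and 42.03% ± 0.197 (SD, n = 3), a difference of 7.35 percentage points with no overlap (exact permutation p = 0.2, the smallest possible). LDHA and LDHB shared no window, though 52.9% of the LDHA windows recur in 7 pseudogenes.

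The lactate carriers also diverged. SLC16A1 (MCT1), the widespread carrier, gave 484 and 487 CPM in wild-type cells against 424, 439 and 466 CPM in knockout cells. It was slightly lower in every knockout library, with a log2 fold change (± SE) of -0.13 ± 0.0436 (adjusted p = 0.00677), and the call was lost without wild-type replicate 1 (adjusted p = 0.0522) or without wild-type replicate 2 (adjusted p = 0.0629). SLC16A3 (MCT4), the export carrier of highly glycolytic cells, gave 16.2 and 18.5 CPM in wild-type cells against 72.3, 65.3 and 69.1 CPM in knockout cells. Its fold of 3.98 was the largest of the 31 members, with a log2 fold change (± SE) of 1.99 ± 0.0978 (adjusted p = 1.29e-21). Its share of the pair by counts per kb was 3.47% and 3.92% in wild-type cells against 15.5%, 13.8% and 13.7% in knockout cells, a gain of 10.6 percentage points. SLC16A1 was much the larger, and the summed carrier level overlapped between the groups, at 499.8 and 506 CPM in wild-type cells against 497, 504 and 535 CPM in knockout cells. PDK3, one of the kinases that switch off pyruvate dehydrogenase and so keep pyruvate from the mitochondrion, gave 52.5 and 54.1 CPM in wild-type cells against 27.4, 29.9 and 28.2 CPM in knockout cells. Its fall was the largest of the 31 members, with a log2 fold change (± SE) of -0.90 ± 0.0826 (adjusted p = 6.45e-13).

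**Figure D3:**
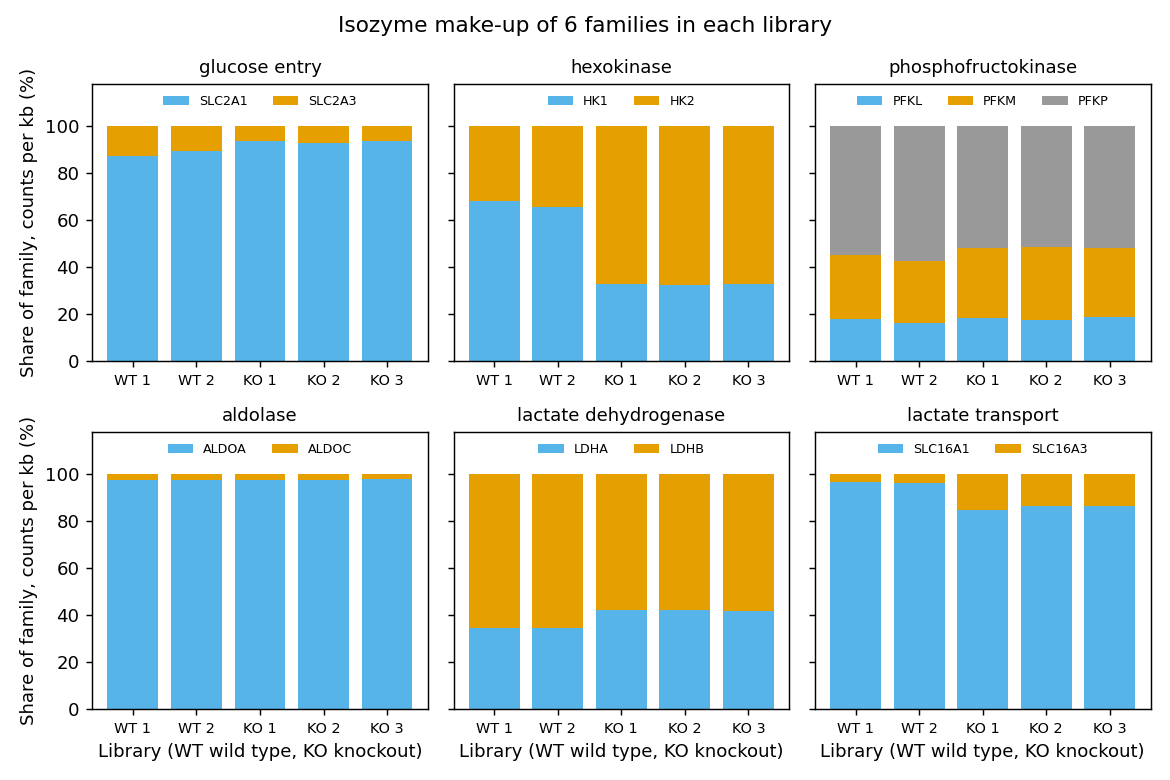
Stacked share of each isozyme in 6 families, from counts per kb of coding sequence, in the 2 wild-type (WT) and 3 knockout (KO) libraries. HK1 drops from 68.0% and 65.8% of hexokinase to about 33%, LDHA gains 7.35 points and SLC16A3 gains 10.6 points, while the aldolase make-up differs by 0.1296 points.

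In the pentose phosphate pathway the oxidative and the reversible arms both held genes that rose. PGD, which makes NADPH and ribulose 5-phosphate, gave 248 and 246 CPM in wild-type cells against 444, 438 and 434 CPM in knockout cells, and rose with a log2 fold change (± SE) of 0.83 ± 0.0453 (adjusted p = 5.22e-20). PGLS, the lactonase just before it, gave 43.1 and 48.5 CPM in wild-type cells against 41.4, 43.6 and 42.5 CPM in knockout cells. Its groups overlapped, with a log2 fold change of -0.10 with a 95% interval from -0.27 to 0.06 (adjusted p = 0.245). RPE, the epimerase that makes xylulose 5-phosphate, gave 17.2 and 18.7 CPM in wild-type cells against 31.7, 35.7 and 35.8 CPM in knockout cells and rose with a log2 fold change (± SE) of 0.95 ± 0.109 (adjusted p = 3.26e-10). RPIA, the isomerase that makes ribose 5-phosphate, gave 41.1 and 46.8 CPM in wild-type cells against 47.8, 46.6 and 46.9 CPM in knockout cells. It overlapped between the groups, with a log2 fold change of 0.10 with a 95% interval from -0.06 to 0.27 (adjusted p = 0.251). With total-count scaling PGLS passed as lower at -0.38 and RPIA turned to -0.17 without passing. Both transferases that return carbon to glycolysis rose. TALDO1, the transaldolase, gave 199.6 and 201 CPM in wild-type cells against 502, 506 and 494 CPM in knockout cells, a fold of 2.497 and a log2 fold change (± SE) of 1.32 ± 0.0464 (adjusted p = 1.14e-26). TKT, the transketolase, gave 799 and 767 CPM in wild-type cells against 998, 956 and 969.9 CPM in knockout cells and a log2 fold change (± SE) of 0.32 ± 0.0389 (adjusted p = 1.68e-09). With total-count scaling the TKT call was lost at 0.04, while TALDO1 and TKT are both free of windows shared with any other gene.

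The hypoxia members moved little. HIF1A, the oxygen-labile transcription factor subunit, gave 188 and 182 CPM in wild-type cells against 214, 220.3 and 215 CPM in knockout cells. It rose slightly, with a log2 fold change (± SE) of 0.23 ± 0.0496 (adjusted p = 8.73e-05), a call lost at -0.05 with total-count scaling. EGLN1 (PHD2), the prolyl hydroxylase that marks HIF1A for destruction in oxygen, gave 27.3 and 29.3 CPM in wild-type cells against 36.04, 31.02 and 30.1 CPM in knockout cells and a log2 fold change of 0.20 with a 95% interval from -0.01 to 0.40 (adjusted p = 0.0762). BNIP3, a mitophagy receptor and HIF target, gave 92.2 and 91.8 CPM in wild-type cells against 97.2, 100.5 and 98.6 CPM in knockout cells and a log2 fold change of 0.10 with a 95% interval from -0.02 to 0.22 (adjusted p = 0.123). In both genes every knockout library lay above both wild-type libraries, but neither passed. With total-count scaling EGLN1 was at -0.0749 and BNIP3 passed as lower at -0.17 (adjusted p = 0.0112).

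Promoters were read from RefSeq entries on GRCh38.p14 for 28 members. SLC2A3, PFKFB2 and SLC16A1 had none. The letters ACGTG, a form of the core that hypoxia-inducible factors and E-box factors both recognise, were searched on either strand, CACGT being the same word read on the other strand, so that CACGTG holds both overlapping. Other forms of the core were not searched. In the 250 bases before the start, 11 of 28 members (39.29%) held it, against 18.51% of all 35116 promoter entries. RefSeq starts and those of the counted transcripts differ, so that 7 of the 28 windows lie wholly within the span of the counted transcript, GAPDH, ALDOC and EGLN1 among them. Only 7 members (ALDOA, BNIP3, GPI, HK2, LDHA, PGD and PGK1) held the letters before the counted transcript. No share over all entries was computed for that part. Over the whole windows the letters stood in 7 of the 18 members that rose, 2 of 4 that fell and 2 of 6 that did not pass. Of the isozymes with an entry whose share of a family differed by over 3 percentage points, HK2 and LDHA held the letters, and the windows of HK1, LDHB, SLC16A3, SLC2A1, PFKM and PFKP did not. Those of SLC2A1, PFKM and PFKP lie wholly within that span, and that of HK1 has 30 bases before it. Printed below is the part of each window that precedes the start of the counted transcript, 5′ to 3′ on the gene's strand, with matches in capitals, for HK2 (chr2:74833877-74833980, plus strand), LDHA (chr11:18394313-18394387, plus strand) and LDHB (chr12:21657843-21658092, minus strand).
HK2: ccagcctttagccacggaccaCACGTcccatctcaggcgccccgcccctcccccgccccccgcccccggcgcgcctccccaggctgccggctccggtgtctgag
LDHA: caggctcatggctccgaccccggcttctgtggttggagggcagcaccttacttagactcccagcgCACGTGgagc
LDHB: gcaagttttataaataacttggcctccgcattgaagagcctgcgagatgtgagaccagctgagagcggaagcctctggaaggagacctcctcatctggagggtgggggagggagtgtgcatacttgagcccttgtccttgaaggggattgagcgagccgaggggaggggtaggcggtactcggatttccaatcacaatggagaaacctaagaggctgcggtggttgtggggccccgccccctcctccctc
A match describes the letters only and names no bound factor. The footprint data hold no measure of transcription or of binding at these places.

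The rest of the pathway was read from lists of other genes. Among 40 neighbours of glycolysis, 36 were in the table and 30 were tested, of which 13 rose, 12 fell and 5 did not pass, with a median log2 fold change of 0.10. These counts lay near the shares over all genes tested, 37.8% higher and 36.6% lower. The smallest adjusted p-values belonged to genes of glycogen, hexosamine and glucose 1-phosphate use. PYGL, a glycogen phosphorylase, fell from 575 ± 3.94 to 172 ± 5.98 CPM (SD, n = 2 and 3), and GFPT1, the entry enzyme of hexosamine synthesis, fell from 652 ± 1.92 to 211 ± 1.12 CPM. Their log2 fold changes were -1.74 (adjusted p = 9.71e-32) and -1.63 (adjusted p = 1.48e-31). The phosphoglucomutases divided. PGM2, which also acts on ribose 1-phosphate, rose from 78.6 ± 6.22 to 265 ± 7.44 CPM with a log2 fold change (± SE) of 1.75 ± 0.0592 (adjusted p = 2.63e-27), while PGM1, the main glucose 1-phosphate enzyme, fell from 137 ± 0.639 to 61.1 ± 1.14 CPM with a log2 fold change (± SE) of -1.17 ± 0.0588 (adjusted p = 3.47e-21). BPGM, which makes 2,3-bisphosphoglycerate, was low and fell with a log2 fold change (± SE) of -0.51 ± 0.193 (adjusted p = 0.0163). Of the subunits that carry pyruvate into mitochondria, MPC1 fell from 53.3 ± 2.45 to 26.1 ± 0.562 CPM with a log2 fold change (± SE) of -1.03 ± 0.0831 (adjusted p = 1.49e-14), and MPC2 gave a log2 fold change of 0.15 with a 95% interval from -0.03 to 0.33 (adjusted p = 0.123). PGK2, the testis phosphoglycerate kinase, had no count in wild-type cells and 75 in knockout cells, at least 6.04-fold higher when the wild-type group is set to a floor of 3 counts in all. Of the PGK1 windows, 2.5% also lie in other coding transcripts, PGK2 among them. PGK1 itself gave 8202 and 7507 counts in wild-type libraries and 37250, 42296 and 41933 in knockout libraries. Whether reads of PGK1 were counted on PGK2 was not tested.

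Of 10 other genes of the pentose phosphate pathway and of ribose 5-phosphate use, 7 rose, 1 fell and 2 did not pass, with a median of 0.57. The shares over all genes tested were 37.8% higher and 36.6% lower. TKTL1, a transketolase-like gene, gave 5 and 4 counts in wild-type libraries and 1697, 1754 and 1774 in knockout libraries, from 0.787 ± 0.0778 to 111 ± 2.63 CPM. Its log2 fold change was 7.11 (adjusted p = 5.00e-33), the largest of any gene in these lists that had counts in both groups. SHPK, which makes sedoheptulose 7-phosphate, rose with a log2 fold change (± SE) of 2.38 ± 0.109 (adjusted p = 1.21e-22), and PRPSAP1, a regulator of ribose phosphate activation, with a log2 fold change (± SE) of 1.27 ± 0.0616 (adjusted p = 8.61e-22). In the hypoxia list 18 of 22 genes were tested, with 8 higher, 8 lower and 2 not past, and a median of -0.06. The hypoxia counts lay near the shares over all genes tested. EGLN3, a HIF-induced hydroxylase, rose from 2.25 ± 0.86 to 16.01 ± 0.773 CPM with a log2 fold change (± SE) of 2.81 ± 0.215 (adjusted p = 3.03e-15), and DDIT4, an inhibitor of mTORC1 signalling, with a log2 fold change (± SE) of 1.68 ± 0.122 (adjusted p = 6.93e-16). EGLN2 rose with a log2 fold change (± SE) of 0.76 ± 0.173 (adjusted p = 1.41e-04). In contrast VEGFA, the vascular growth factor and a much used HIF target, fell from 42.03 ± 1.502 to 19.5 ± 1.28 CPM with a log2 fold change (± SE) of -1.11 ± 0.0944 (adjusted p = 7.76e-14), and VHL, which targets hydroxylated HIF for destruction, fell with a log2 fold change (± SE) of -0.86 ± 0.0836 (adjusted p = 3.39e-12). A footprint count reflects both the amount of an mRNA and the ribosomes on each copy, and in bulk lysates fewer cells of a kind and less RNA per cell cannot be told apart. No matched RNA measurement was used here.

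**Figure D4:**
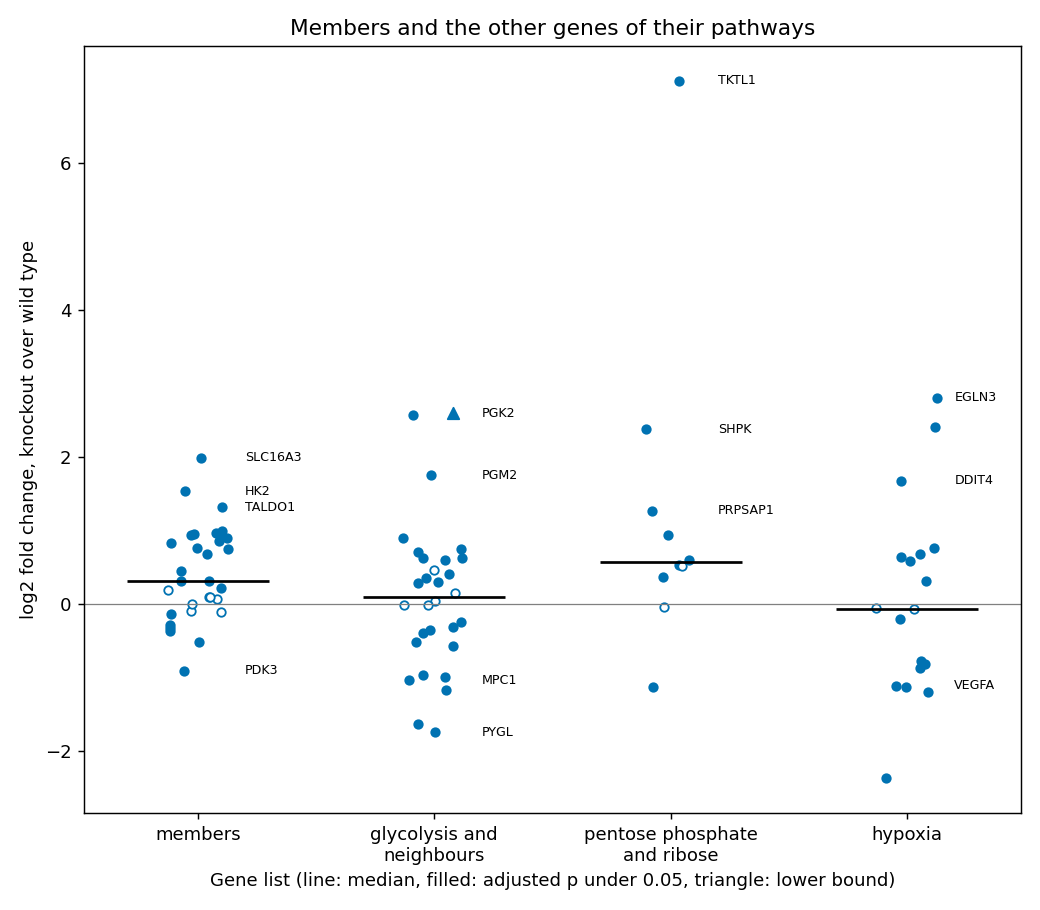
Log2 fold change, knockout over wild type, of the members and of the tested genes in 3 lists of other pathway genes, each point a gene, filled where the adjusted p was under 0.05, with a line at each median. The members' median is 0.32 and that of the other pentose phosphate genes 0.57, the glycolysis neighbours and hypoxia genes centre near 0 (0.10 and -0.06), TKTL1 stands alone at 7.11 and PGK2 is drawn at its lower bound.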

How the data were processed

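Footprints of 28 to 32 bases from 5 HAP1 libraries were, per the labels' protocols, taken from RNase I digests of cycloheximide lysates, with 4 randomized adapter bases. The authors deposited raw counts in a single table of 14084 transcript rows, 387 of them without any count, and no column was left unused. Per the submitters' processing notes, Bowtie and hg38 were used. Duplicate removal, counting tool and annotation were not given in the sources used here. The molecule label reads polyA RNA.

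From these counts edgeR 4.0.16 in R 4.3.3 (TMM, filterByExpr at its defaults of 10 counts and 15 in total, robust quasi-likelihood fit with group as the sole term) was fitted to the whole table with Benjamini-Hochberg adjustment and a threshold of 0.05. It was checked on simulated counts in which most genes were unchanged, a setting that does not test the scaling of these data. Step sums and shares were tested by exact permutation over libraries. Precision is set by 4887380 to 17629199 counts per library. GENCODE 29 gave coordinates and coding lengths, with ALDOA read from ENST00000412304 because its deposited transcript is annotated to a read-through gene. Windows of 28 bases were matched to all GENCODE transcripts. Alternatives used DESeq2 1.42.0, limma 3.58.1 (voom), no low-count filter, a non-robust fit and rows of a symbol summed. Others thinned the knockout counts to wild-type depth or used the further settings named at the end. The members and the lists of other genes were chosen with earlier results of these data known. The rule for named genes took every member, the 3 genes of each other list with the smallest adjusted p, and 8 more genes of the lists, EGLN3 being taken by both. 1 gene it took is not reported here. PGK2 was added after its values were seen. Each library was counted as a sample because the labels list it as one. The wild-type pair differed beyond counting noise (chi-square per degree of freedom of 1.14, p = 8.02e-22), as did the knockout pairs (2.73 to 3.48), which does not show separate cultures.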

Additional observations from a re-analysis of the deposited data

How the results depend on the processing

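The number of members called higher stayed within 13 to 19. The number lower stayed within 4 to 7, except for 10 with total-count scaling and 1 (PDK3) with a required fold of 1.5. The required fold also gave the 13 higher, and it called 36.5% of all genes tested in either direction. HK1, GPI, PFKP, PFKFB2, ALDOC, TPI1, LDHB, SLC16A1, TKT and HIF1A lost their call there. Leaving out each library in turn gave 18 to 19 higher and 4 to 7 lower. Of the members' log2 fold changes under alternatives, 484 kept direction and call, 20 lost the call, 8 gained it and 14 changed sign. The required fold of 1.5 takes the call from small differences by design. For the other changes the cause was not tested. PFKM turned to -0.00895 with RLE factors, -0.0421 with upper-quartile factors, -0.27 with total-count scaling, -0.0587 with a mean of at least 10 CPM, -0.0735 with the knockout thinned, and ranged from -0.0722 to 0.0728 with a library left out. Total-count scaling also turned SLC2A3 to -0.20, RPIA to -0.17, HIF1A to -0.0451, EGLN1 to -0.0749 and BNIP3 to -0.17 (adjusted p = 0.0112). With a library left out, SLC2A3 ranged from -0.0267 to 0.17 and PFKL from -0.20 (without wild-type replicate 2, adjusted p = 0.0316; without knockout replicate 1, adjusted p = 0.0442) to 0.0325. Of the summed steps, lactate transport turned to -0.25 with total-count scaling and ranged from -0.00653 to 0.0479 with a library left out, RPIA turned to -0.17 with total-count scaling, and hexokinase to -0.52 without HK2. A further 24 summed values moved beyond the spread with their direction kept, most of them with total-count scaling. The shares of isozymes and of all counts moved by less than the spread in the 62 alternatives run on them.

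The replicate numbers were not used to pair the libraries in the main fit, and only numbers 1 and 2 are shared. Deviations of like-numbered libraries correlated at 0.00853 and 0.0231. These values cannot show whether libraries were paired, since the wild-type pair differed little beyond counting noise (chi-square per degree of freedom of 1.14). With the number as a block 19 members were higher and 5 lower. EGLN1 passed at 0.25 (adjusted p = 0.0177) and PFKFB2 did not (adjusted p = 0.0696). Depth limits the low members most: PFKFB2 and SLC2A3 had under 70 counts in each wild-type library.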
